A study of Mus musculus with 12 samples.

Results

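The nuclear-encoded subunits of oxidative phosphorylation were followed across 12 poly(A) RNA-seq libraries made from mouse oocytes and from parts of oocyte lysates. Members were chosen by symbol and annotation: protein-coding genes named as subunits of NADH dehydrogenase, succinate dehydrogenase, cytochrome bc1, cytochrome c oxidase or ATP synthase, with assembly factors left out. This gave 87 genes with 86 symbols, of the 55573 genes counted in every library. Complex I held 37 of them, complex II 4, complex III 9, complex IV 19 and complex V 18. Ndufa4, whose symbol points to complex I, was placed in complex IV, where its product sits, and the factor Atp5s was placed in complex V. The complexes lie in the inner mitochondrial membrane. Complexes I and II pass electrons from NADH and succinate to ubiquinone, complex III passes them on to cytochrome c, and complex IV hands them to oxygen. The protons pumped on the way return through complex V, which makes ATP. A few core subunits are encoded in mitochondrial DNA, while all the members here are transcribed in the nucleus, translated in the cytosol and imported. The oocyte is known to rely on this pathway, because it uses glucose poorly and burns pyruvate supplied by the cumulus cells.

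The oocytes were germinal vesicle stage cells of a B6D2F1 female aged 12 weeks, collected with milrinone, which keeps them arrested, and given no other treatment. Of these, 6 were kept whole, with 2 libraries each at 10, 14 and 18 PCR cycles, and lysates of 2 oocytes were diluted to give 2 libraries each of 1/2, 1/4 and 1/8 at 18 cycles. The same amount of ERCC RNA was added to each after dilution. Whole-oocyte replicates were different oocytes, whether fractions with the same replicate number share an oocyte is not stated, and cycle number, oocyte, depth and preparation cannot be told apart. Gene counts in replicates 1 and 2 were 11597144 and 9189672 at 10 cycles, 12349577 and 13806199 at 14, 3017069 and 1706478 at 18, 4024670 and 3598549 in 1/2, 4027907 and 5049518 in 1/4, and 11404262 and 1702062 in 1/8. Values below are always given in this order of libraries, and reads amplified by PCR carried no molecular identifiers, so the counting floors given below cover counting error only.

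Levels of different members were compared in TPM, transcript counts per unit of exon length scaled to a fixed total, as the mean of the 4 whole oocytes at 10 and 14 cycles. The median member stood at 107.19 TPM, against 2.18 TPM over all 21903 protein-coding genes. At 100 TPM or more were 47 members, 54.02% of them, against 8.07% of protein-coding genes. All but 3 members reached 1 TPM, and the summed TPM of the members was 14309.7 ± 1031.5 (SD). Cox4i1, the regulatory subunit of cytochrome c oxidase that binds ATP, was the most abundant at 1189 ± 92.8 TPM. In complex I the most abundant were Ndufa2, a small subunit beside the iron-sulfur clusters, at 693 ± 121 TPM and Ndufb11, of the membrane arm, at 457 ± 85.4 TPM. Complex II was led by Sdhd, a membrane anchor, at 428 ± 24.6 TPM, followed by the iron-sulfur subunit Sdhb at 108 ± 16.4 TPM. In complex III Uqcrh, the hinge protein beside cytochrome c1, had 349 ± 52 TPM and Uqcrq, a small ubiquinone-binding subunit, had 317 ± 26.6 TPM. In complex IV Cox6a1, the widely expressed form of subunit 6a, followed Cox4i1 at 616 ± 104 TPM. Complex V was led by Atp5e, the epsilon subunit of the central stalk, at 342 ± 15.7 TPM, and Atp5c1, the gamma subunit, at 296 ± 31.9 TPM. Subunits present in a fixed ratio in the enzyme did not share 1 level: the catalytic beta subunit Atp5b had 213 ± 13.1 TPM and the alpha subunit Atp5a1 72.1 ± 6.43 TPM. These levels rest on the union of exons as gene length, and of the 10 members highest in TPM 5 stayed among the highest 10 with the longest coding transcript and 6 with the principal transcript, Cox4i1 being first each time.

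Members with a tissue-restricted partner had the widely expressed form at the higher level in TPM, by margins that differed between pairs. Cox4i2, the lung form of subunit 4, had 10.1 ± 2.42 TPM beside 1189 ± 92.8 TPM for Cox4i1. Cox6a2, the heart and muscle form of subunit 6a, had 56.3 ± 10.4 TPM beside 616 ± 104 TPM for Cox6a1. Cox6b2, a testis form, had 79.7 ± 14.4 TPM beside 385 ± 40.5 TPM for its partner Cox6b1. Cox8c, another testis form, had 5.73 ± 3.59 TPM beside 221 ± 12.3 TPM for the widely expressed Cox8a. The muscle form Cox7a1 had a mean of 0.38 TPM, while Cox7a2, the widely expressed form, had 442 ± 30.2 TPM. Cox8b, a muscle form, and Cox7b2, a testis form, had 0 counts in all 12 libraries. The 3 genes for the same mature subunit c of the ATP synthase ring differed, with Atp5g3 at 45.9 ± 13.7 TPM, Atp5g1 at 9.34 ± 0.97 TPM and Atp5g2 at 2.48 ± 0.52 TPM. Their matches in other genes (95% identity or more over at least 100 bases) numbered 0, 19 and 2. Reads fitting more than 1 place may be missing from the counts, so this order may not be one of transcript levels. With 3 counts taken as the least that could be told from 0, the floor ran from 0.217 to 1.763 CPM (counts scaled to a common total of gene counts) over the libraries. Members with at least 1 count numbered 82 to 85 per library, and after thinning every library to 1702062 counts those with at least 5 counts numbered 77 to 81. Cox8b and Cox7b2 were thus missing from deep and shallow libraries alike.

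Marker genes were read beside the members. The 14 oocyte markers summed to 33569 and 29188 CPM at 10 cycles, 32552 and 33766 at 14 cycles, 9225 and 7637 at 18 cycles, 11146 and 10896 in 1/2, 16382 and 17946 in 1/4, and 26049 and 24696 for 1/8, and every library carried them. The granulosa and cumulus markers, which attached follicle cells would bring in, summed to 259 and 86.1 CPM at 10 cycles, 113 and 179 at 14 cycles, 73.6 and 28.7 at 18 cycles, 34.5 and 30.9 in 1/2, 54.9 and 58.8 in 1/4, and 81.4 and 71.7 for 1/8. Those values were highest in replicate 1 at 10 cycles, whose members summed to a value inside the range of the other oocytes at 10 and 14 cycles. Blood markers summed to at most 1.5 CPM, with Hbb-bt, Hba-a1 and Hba-a2 at 0 in every library.

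Summed over all members, libraries had 6375 and 6856 CPM at 10 cycles, 6161 and 6974 at 14 cycles, 12659.6 and 10672 at 18 cycles, 15132 and 10851 in 1/2, 8836 and 9411 in 1/4, and 8307 and 9937 for 1/8. All 4 whole oocytes at 10 and 14 cycles lay below all 8 libraries amplified for 18 cycles, with no overlap. Against the mean of those 4 oocytes, 6591.5 CPM, the sum was 1.77 times as large in whole oocytes at 18 cycles, 1.971 times in 1/2, 1.384 times in 1/4 and 1.384 times in 1/8. These are shares of the gene counts of a library and not amounts per oocyte. Leaving out Cox4i1, the most abundant member, the 4 ratios were 1.672, 1.918, 1.369 and 1.408, so the change was not carried by 1 gene. Complexes II and III departed from this order. In complex III, replicate 2 of the whole oocytes at 18 cycles, at 629.95 CPM, lay below all 4 oocytes at 10 and 14 cycles. Complex II had 455 and 427 CPM at 10 cycles, 444 and 471 at 14 cycles, 388 and 355 at 18 cycles, 371 and 375 in 1/2, 319 and 451 in 1/4, and 524 and 543 for 1/8. Its whole oocytes at 18 cycles lay below all 4 whole oocytes at 10 and 14 cycles, and its 1/8 libraries lay above them. Stacked bars of the summed CPM show this by complex for each library.

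**Figure D1:**
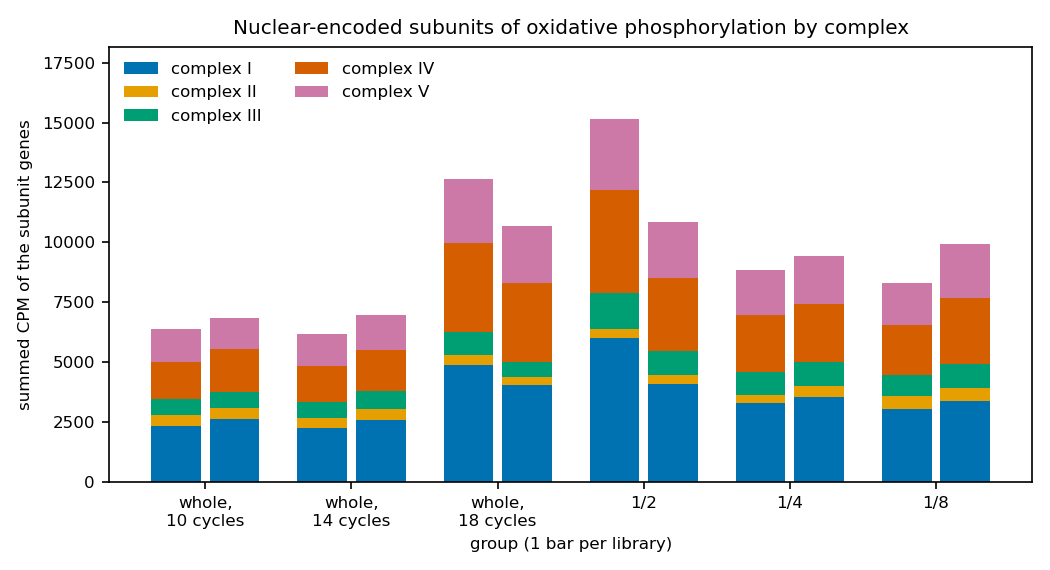
Summed CPM of the members in each library, stacked by complex I to V. Each bar is 1 library, and the libraries are grouped by cycle number and by lysate fraction.

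Between 14 and 10 cycles, edgeR called 0 of 84 tested members at adjusted p under 0.01, with 0% of all tested genes higher and 0% lower. At an unadjusted p under 0.05 the same test gave 2 members, beside 513 of all 17532 tested genes. DESeq2 called 0 members, beside 1 gene higher and 1 lower. The median log2 fold change was -0.05 over members and 0.01 over all genes, and 0 members were called in every refit that left out 1 library. Members not tested here or in the other fits were Cox7a1, Cox7b2 and Cox8b, which missed 5 counts in 2 libraries.

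Between 18 and 10 cycles, edgeR called 30 of 84 members higher and 11 lower, against 12.3% higher and 10.8% lower of all tested genes. The median log2 fold change was 0.46 over members and -0.29 over all genes. Under ERCC size factors, which set the added RNA equal, 59 members were higher and 0 lower, beside 8348 higher and 0 lower of all 17532 tested genes. The 11 falls were thus called by shares of the library and not under these factors. Gene counts per ERCC count were 1873 and 1158 in the whole oocytes at 18 cycles, but 323 to 360 in those at 10 and 14 cycles. Estimates under ERCC size factors follow this difference and do not stand for amounts per oocyte. The median log2 fold change under these factors was 2.73 over members and 1.96 over all genes. Without replicate 1 or 2 of the oocytes at 10 cycles 19 or 17 members were higher, and without replicate 2 of them 7 were lower. Against 14 cycles, a comparison with the same 18-cycle oocytes, 33 members were higher and 12 lower, beside 12.5% and 10.7% of all tested genes. Without replicate 1 or 2 of the oocytes at 14 cycles 18 or 19 were higher and 7 or 6 were lower, and under ERCC size factors 62 were higher and 0 lower, beside 8398 higher and 2 lower of all 17532 genes. By complex, the members higher and lower between 18 and 10 cycles were 13 and 4 in complex I, 1 and 2 in complex II, 2 and 2 in complex III, 6 and 2 in complex IV, and 8 and 1 in complex V, with edgeR. By shares, though not under ERCC size factors, every complex thus had members called in opposite directions. The log2 fold changes of the members, ordered within each complex, are drawn with their standard errors.

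For the lysate fractions against whole oocytes at 18 cycles, size factors were taken as the median ratio of the genes, which compares shares, and again from the ERCC counts, which compares gene counts with the RNA added. Gene counts per ERCC count were 1873 and 1158 in whole oocytes at 18 cycles, but 323 to 360 in whole oocytes at 10 and 14 cycles and 344 to 439 in 1/2, so values scaled by ERCC do not stand for amounts per oocyte. In 1/2, edgeR called 0 members by median ratio, with 0.0811% of all tested genes higher and 0.0406% lower. At an unadjusted p under 0.05 there were 27 members. DESeq2 called 6 members higher, beside 103 higher and 49 lower of all 14788 tested genes. In 1/4, edgeR again called 0 members, with 0.0338% of genes higher and 0.426% lower, and 40 members had an unadjusted p under 0.05. DESeq2 there called 3 members higher and 6 lower, beside 70 higher and 171 lower of all 14788 genes. The unadjusted counts in 1/2 and 1/4 have no share over all genes beside them, so nothing is read from them. In 1/8, edgeR called 11 members higher and 20 lower by median ratio, beside 7.06% and 8.69% of all tested genes, while with ERCC size factors all 84 estimates were below 0. Without replicate 1 of the whole oocytes, replicate 1 of 1/8 or replicate 2 of 1/8, the members lower in 1/8 were 12, 10 or 12. With ERCC size factors 39 members were lower in 1/2, 67 in 1/4 and 80 in 1/8, beside 52%, 69.7% and 87.5% of all tested genes. In 1/2 the 39 members lower by ERCC became 15 without replicate 1 of the whole oocytes and 7 without replicate 2 of 1/2. The ERCC medians of the members were -1.38, -2.77 and -5.02, falling with each dilution, beside -2.0, -2.69 and -4.92 over all genes. These drops depend on the reference: against whole oocytes at 10 and 14 cycles the ERCC median in 1/8 was -2.836 over all genes. No member was called higher by ERCC with edgeR, and DESeq2 gave 0 too.

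The fractions were compared with the whole oocytes at 10 and 14 cycles as well, where the amount of lysate and the cycle number differ together. In 1/2, edgeR called 42 members higher and 3 lower, beside 12.3% and 8.81% of all tested genes, and without replicate 1 of 1/2 the members higher were 26. In 1/4, 22 members were higher and 3 lower, beside 8.48% and 5.35% of all tested genes, and under ERCC size factors 1 was higher and 5 were lower, beside 284 and 1965 of all 18041 genes. Without replicate 1 or 2 of 1/4, the members higher were 8 or 14, and without replicate 1 the members lower were 0. In 1/8, edgeR called 0 members, beside 0% higher and 0% lower of all genes. An unadjusted p under 0.05 was found for 35 members, a count given without its share over all genes. DESeq2 called 8 members higher, beside 119 higher and 71 lower of all 18041 genes. Without replicate 1 of 1/8, some members were higher by edgeR. The share over all genes in that refit is not given, so nothing is read from it. The median log2 fold change in 1/8 was 0.47 by median ratio and -2.33 under ERCC size factors, where 80 members and 14043 of all 18041 genes were lower. Comparisons of 1/2 and of 1/4 shared the same 4 control oocytes. The fractions themselves came from lysates of only 2 oocytes, so the counts of members called are not independent.

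In complex I the largest rise belonged to Ndufb2 (ENSMUSG00000002416, chr6:39592574-39603382), an accessory subunit of the membrane arm. It had 26.4 and 33.5 CPM at 10 cycles, 28.3 and 33.5 at 14 cycles, 248 and 273 at 18 cycles, 207 and 171 in 1/2, 123 and 93.3 in 1/4, and 47.1 and 107 for 1/8. All 8 libraries at 18 cycles lay above the 4 at 10 and 14 cycles, with replicate 1 of 1/8 nearest to them. It rose between 10 and 18 cycles (log2 fold change 3.39, standard error 0.24, edgeR adjusted p = 4.92e-05) and fell in 1/8 against whole oocytes at 18 cycles (log2 fold change -2.0, standard error 0.35, edgeR adjusted p = 0.000287). Ndufc1, a short subunit of the same arm, had 15.2 and 14.8 CPM at 10 cycles, 13.4 and 15.6 at 14 cycles, 102 and 68.6 at 18 cycles, 82.5 and 60.3 in 1/2, 40.7 and 34.3 in 1/4, and 20.9 and 41.1 for 1/8. It too lay higher in every library at 18 cycles, with a rise between 10 and 18 cycles (log2 fold change 2.77, standard error 0.25, edgeR adjusted p = 7.54e-05) and a rise in 1/2 against 10 and 14 cycles (log2 fold change 2.54). Ndufs4 (ENSMUSG00000021764, chr13:114287795-114388258), an accessory subunit at the base of the NADH-binding arm that human disease mutations often hit, went the other way. It had 99.3 and 105 CPM at 10 cycles, 80.0 and 96.9 at 14 cycles, 9.28 and 14.7 at 18 cycles, 25.8 and 26.4 in 1/2, 25.3 and 39.8 in 1/4, and 103 and 149 for 1/8. The whole oocytes at 18 cycles were lowest, 1/2 and 1/4 lay between, and 1/8 overlapped the oocytes at 10 cycles. It fell between 10 and 18 cycles (log2 fold change -2.88, standard error 0.29, edgeR adjusted p = 0.000102), and with ERCC size factors the estimate was -0.68 and no longer called. It was higher in 1/8 than in whole oocytes at 18 cycles by median ratio (log2 fold change 3.21, standard error 0.40, edgeR adjusted p = 1.41e-05) but at -1.70 with ERCC size factors, the smallest ERCC drop of any member. Ndufb3, of the membrane arm, had 48 and 57 CPM at 10 cycles, 47 and 48.5 at 14 cycles, 8.29 and 11.7 at 18 cycles, 20.9 and 12.5 in 1/2, 12.2 and 16.6 in 1/4, and 55.9 and 68.7 for 1/8. Its 6 libraries of whole oocytes at 18 cycles, 1/2 and 1/4 were lower than all others. It fell between 10 and 18 cycles by shares (log2 fold change -2.17, standard error 0.31, edgeR adjusted p = 0.000454) and stood at 0.02 under ERCC size factors.

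The core subunits of complex I hold the cofactors that carry the electrons. Ndufs1, the largest subunit of the NADH-binding arm with 3 iron-sulfur clusters, had 29.2 and 28.8 CPM at 10 cycles, 24.6 and 28.6 at 14 cycles, 8.95 and 5.27 at 18 cycles, 20.4 and 8.34 in 1/2, 8.94 and 25.2 in 1/4, and 23.3 and 15.3 for 1/8. The whole oocytes at 18 cycles lay below those at 10 and 14 cycles, and the replicates of 1/2 and of 1/4 were far apart. It fell by shares (log2 fold change -1.73, standard error 0.33, edgeR adjusted p = 0.00226) with 0.55 under ERCC size factors, and the call was lost without replicate 1 of the whole oocytes at 10 cycles (0.0139) or replicate 2 of the whole oocytes at 10 cycles (0.0173), adjusted p of edgeR in brackets. Ndufv1, which binds NADH and FMN, had 121 and 116 CPM at 10 cycles, 129 and 128 at 14 cycles, 216 and 131 at 18 cycles, 247 and 189 in 1/2, 168 and 155 in 1/4, and 122 and 66.4 for 1/8. Replicate 2 at 18 cycles came close to the oocytes at 14 cycles, and the change was not called (log2 fold change 0.81, standard error 0.22, edgeR adjusted p = 0.0141). It was called by DESeq2 (adjusted p = 0.00263), with no filter, under ERCC size factors, and by edgeR without replicate 2 at 18 cycles (log2 fold change 1.08, adjusted p = 0.00152). Ndufs8, which holds 2 clusters next to the ubiquinone site, was not called (log2 fold change -0.27, standard error 0.24, edgeR adjusted p = 0.401), with 2.01 and a call under ERCC size factors. Ndufab1, an acyl carrier protein also used in fatty acid synthesis, was not called either (log2 fold change 1.14, standard error 0.31, edgeR adjusted p = 0.015), but it was called by DESeq2 (adjusted p = 0.00348), with no filter, under ERCC size factors, with a replicate term in the fit, and by edgeR without replicate 1 at 18 cycles (log2 fold change 1.5, adjusted p = 0.0062).

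Among the abundant and accessory subunits of complex I, Ndufa2 had 112 and 153 CPM at 10 cycles, 107 and 123 at 14 cycles, 493 and 493 at 18 cycles, 623 and 385 in 1/2, 274 and 271 in 1/4, and 155 and 209 for 1/8. All 8 libraries at 18 cycles were above the 4 others. From 10 to 18 cycles it rose (log2 fold change 2.16, standard error 0.23, edgeR adjusted p = 0.000122), and so it did in 1/2 against 10 and 14 cycles (log2 fold change 2.29). Ndufs6, a zinc-binding subunit needed for late assembly, had 31.8 and 32.9 CPM at 10 cycles, 27.1 and 27.7 at 14 cycles, 118 and 109.6 at 18 cycles, 147 and 91.1 in 1/2, 53.1 and 55.1 in 1/4, and 37.1 and 27.6 for 1/8. Both whole oocytes at 18 cycles and 1/2 were highest, and 1/8 overlapped the oocytes at 10 and 14 cycles. It fell in 1/8 against whole oocytes at 18 cycles (log2 fold change -1.99, standard error 0.33, edgeR adjusted p = 0.000184). Ndufb11 had 108 and 148 CPM at 10 cycles, 109 and 153 at 14 cycles, 77.9 and 64.5 at 18 cycles, 262 and 126 in 1/2, 129 and 169 in 1/4, and 158 and 168 for 1/8. Its whole oocytes at 18 cycles were lowest while replicate 1 of 1/2 was highest, and the change between 10 and 18 cycles was not called (log2 fold change -0.59, standard error 0.25, edgeR adjusted p = 0.0883), with 1.64 and a call under ERCC size factors.

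Complex II, which also acts in the citric acid cycle, had 1 of 2 water-soluble subunits called higher and both membrane subunits called lower by shares between 18 and 10 cycles, while under ERCC size factors none of the 4 was lower. Sdha, which binds FAD and oxidises succinate, had 136 and 109 CPM at 10 cycles, 130.3 and 131 at 14 cycles, 171 and 173 at 18 cycles, 99.9 and 145 in 1/2, 105 and 142 in 1/4, and 161 and 171 for 1/8. The 2 whole oocytes at 18 cycles were above the 4 at 10 and 14 cycles and close to 1/8. The change between 10 and 18 cycles was not called (log2 fold change 0.76, standard error 0.19, edgeR adjusted p = 0.0114). DESeq2 called it (adjusted p = 0.00112), as did edgeR with no filter, under ERCC size factors, and without replicate 1 at 18 cycles (log2 fold change 0.86, adjusted p = 0.00962). Sdhb, with 3 iron-sulfur clusters, had 80.3 and 61.4 CPM at 10 cycles, 71.1 and 89.2 at 14 cycles, 167 and 127 at 18 cycles, 108 and 116 in 1/2, 96.8 and 112 in 1/4, and 102 and 81.1 for 1/8. At 18 cycles the 2 whole oocytes were above all other libraries. It rose (log2 fold change 1.32, standard error 0.21, edgeR adjusted p = 0.00096), a call lost without replicate 2 of the whole oocytes at 10 cycles (0.017), adjusted p of edgeR in brackets. Sdhc, a membrane anchor that binds heme with Sdhd, had 86.9 and 82.2 CPM at 10 cycles, 73.8 and 87.2 at 14 cycles, 18.2 and 19.3 at 18 cycles, 66.3 and 42.5 in 1/2, 45.9 and 83 in 1/4, and 90.1 and 133 for 1/8. At 18 cycles whole oocytes were lowest without overlap, and 1/8 was above the oocytes at 10 and 14 cycles. It fell by shares between 10 and 18 cycles (log2 fold change -1.92, standard error 0.23, edgeR adjusted p = 0.000219) with 0.32 under ERCC size factors. It was higher in 1/8 than in whole oocytes at 18 cycles (log2 fold change 2.37, standard error 0.39, edgeR adjusted p = 0.000158), but at -2.59 with ERCC size factors. Sdhd (ENSMUSG00000000171, chr9:50596357-50603812), the other anchor, had 152 and 175 CPM at 10 cycles, 169 and 163 at 14 cycles, 31.8 and 36.3 at 18 cycles, 97.2 and 71.4 in 1/2, 71 and 113 in 1/4, and 171 and 158 for 1/8. Both whole oocytes at 18 cycles were below every other library, and 1/8 lay inside the range of the oocytes at 10 and 14 cycles. It fell by shares (log2 fold change -2.01, standard error 0.23, edgeR adjusted p = 0.000143) and stood at 0.19 under ERCC size factors, and in 1/8 it was higher by median ratio (log2 fold change 2.08, standard error 0.33, edgeR adjusted p = 0.00012) and at -2.85 with ERCC size factors.

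In complex III, Cyc1, which carries the heme that hands electrons to cytochrome c, had 18.9 and 12.2 CPM at 10 cycles, 21.1 and 20.7 at 14 cycles, 55.4 and 38.7 at 18 cycles, 27.1 and 33.9 in 1/2, 27.3 and 32.9 in 1/4, and 23.3 and 18.2 for 1/8. The 2 whole oocytes at 18 cycles were highest, and 1/8 overlapped those at 10 and 14 cycles. It rose between 10 and 18 cycles (log2 fold change 1.86, standard error 0.29, edgeR adjusted p = 0.000743), and the call was lost without replicate 2 of the whole oocytes at 10 cycles (0.0116), adjusted p of edgeR in brackets. Uqcrq had 162 and 196 CPM at 10 cycles, 176 and 193 at 14 cycles, 621 and 418 at 18 cycles, 918 and 622 in 1/2, 515 and 463 in 1/4, and 268 and 296 for 1/8. All 8 libraries at 18 cycles were above the 4 others, with replicate 1 of 1/2 highest. Its rise from 10 to 18 cycles was called (log2 fold change 1.79, standard error 0.22, edgeR adjusted p = 0.00024), as was the one in 1/2 against 10 and 14 cycles (log2 fold change 2.35). Uqcrc2 (ENSMUSG00000030884, chr7:120635176-120659524), a core subunit of the part that faces the matrix, had 164 and 122 CPM at 10 cycles, 178 and 185 at 14 cycles, 27.5 and 41 at 18 cycles, 49.2 and 56.1 in 1/2, 61.1 and 85 in 1/4, and 191 and 162 for 1/8. Whole oocytes at 18 cycles, 1/2 and 1/4 lay below the oocytes at 10 and 14 cycles, and 1/8 lay among or above them. It fell between 10 and 18 cycles by shares (log2 fold change -1.81, standard error 0.27, edgeR adjusted p = 0.000569), with 0.40 under ERCC size factors, and was higher in 1/8 by median ratio (log2 fold change 2.17, standard error 0.33, edgeR adjusted p = 8.85e-05) with -2.71 by ERCC. Its partner in the same core, Uqcrc1, had 10.6 and 6.86 CPM at 10 cycles, 8.34 and 8.62 at 14 cycles, 49.4 and 3.52 at 18 cycles, 2.48 and 1.11 in 1/2, 20.4 and 20 in 1/4, and 2.37 and 1.18 for 1/8. Replicate 1 at 18 cycles stood far above replicate 2, which was lower than every oocyte at 10 and 14 cycles, so these groups overlapped. Its change between 10 and 18 cycles was not called (log2 fold change 1.88, standard error 0.71, edgeR adjusted p = 0.0623), but edgeR called it with no filter, under ERCC size factors, and without replicate 2 at 18 cycles (log2 fold change 2.72, adjusted p = 0.000645). Its fall in 1/8 (log2 fold change -3.88, standard error 0.78, edgeR adjusted p = 0.000951) was lost without replicate 1 of the whole oocytes at 18 cycles (0.438), replicate 1 of 1/8 (0.0175) or replicate 2 of 1/8 (0.0105), adjusted p of edgeR in brackets, and without the first of these 3 libraries the log2 fold change was -1.09.

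The hinge gene Uqcrh had 124 and 159 CPM at 10 cycles, 116 and 141 at 14 cycles, 45.4 and 52.7 at 18 cycles, 148 and 103 in 1/2, 89.9 and 116 in 1/4, and 168 and 273 for 1/8. At 18 cycles the 2 whole oocytes were lowest without overlap, and both libraries of 1/8 were above all whole oocytes. It fell by shares between 10 and 18 cycles (log2 fold change -1.27, standard error 0.24, edgeR adjusted p = 0.00227) with 0.91 under ERCC size factors, a call lost without replicate 2 of the whole oocytes at 10 cycles (0.0251) or replicate 1 of the whole oocytes at 18 cycles (0.0191), adjusted p of edgeR in brackets. Uqcrfs1, the Rieske iron-sulfur protein that takes electrons from ubiquinol, was not called (log2 fold change -0.69, standard error 0.24, edgeR adjusted p = 0.0432), though it was called by edgeR with a filter of 10 counts in every library (adjusted p = 0.00719), and its estimate was 1.59 and called under ERCC size factors.

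In complex IV, Cox4i1 (ENSMUSG00000031818, chr8:120668222-120674207) had 557 and 602 CPM at 10 cycles, 524 and 622 at 14 cycles, 1629 and 1586 at 18 cycles, 1741 and 1163 in 1/2, 922 and 850.2 in 1/4, and 719 and 585 for 1/8. Of the 8 libraries at 18 cycles, 7 were above all 4 others, and replicate 2 of 1/8 lay inside the range of those 4. From 10 to 18 cycles it rose (log2 fold change 1.74, standard error 0.20, edgeR adjusted p = 0.000165), and so it did in 1/2 against 10 and 14 cycles (log2 fold change 1.59). Cox5b, a zinc-binding subunit on the matrix side, had 29.9 and 33.2 CPM at 10 cycles, 31.6 and 30.9 at 14 cycles, 172 and 178 at 18 cycles, 170.2 and 117 in 1/2, 83.7 and 82.2 in 1/4, and 59.6 and 68.7 for 1/8. Every library at 18 cycles exceeded the 4 others, and whole oocytes and 1/2 exceeded 1/4 and 1/8. It rose between 10 and 18 cycles (log2 fold change 2.74, standard error 0.21, edgeR adjusted p = 4.92e-05) and fell in 1/8 against whole oocytes at 18 cycles (log2 fold change -1.66, standard error 0.30, edgeR adjusted p = 0.000404). Cox5a, the matrix-side subunit that binds a thyroid hormone, had 141 and 210.2 CPM at 10 cycles, 141 and 151 at 14 cycles, 517 and 531 at 18 cycles, 696 and 429 in 1/2, 280.0 and 290.3 in 1/4, and 249.6 and 500.0 for 1/8. All libraries at 18 cycles were above the others, and replicate 2 of 1/8 came close to whole oocytes at 18 cycles. Its rise from 10 to 18 cycles was called (log2 fold change 1.84, standard error 0.24, edgeR adjusted p = 0.000333). Cox8a, a short subunit crossing the membrane, had 38.5 and 42.8 CPM at 10 cycles, 45 and 44.8 at 14 cycles, 168 and 179 at 18 cycles, 167 and 137 in 1/2, 127 and 108 in 1/4, and 67.3 and 106 for 1/8. The libraries at 18 cycles were again all higher, and it rose between 10 and 18 cycles (log2 fold change 2.36, standard error 0.21, edgeR adjusted p = 6.41e-05). Cox6a1 had 124 and 166 CPM at 10 cycles, 118 and 131 at 14 cycles, 518 and 442 at 18 cycles, 493 and 377 in 1/2, 271 and 259.8 in 1/4, and 197 and 187 for 1/8. Its libraries at 18 cycles were higher without overlap, with a rise between 10 and 18 cycles (log2 fold change 1.98, standard error 0.22, edgeR adjusted p = 0.000143) and a fall in 1/8 against whole oocytes at 18 cycles (log2 fold change -1.52, standard error 0.28, edgeR adjusted p = 0.000383).

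By shares, but not under ERCC size factors, falls in complex IV came in small subunits around the core. Cox7b, a subunit needed for assembly, had 108 and 104 CPM at 10 cycles, 91.1 and 102 at 14 cycles, 34.8 and 27.5 at 18 cycles, 139 and 77.8 in 1/2, 75 and 102 in 1/4, and 133 and 221 for 1/8. At 18 cycles whole oocytes were below every other library. It fell by shares between 10 and 18 cycles (log2 fold change -1.50, standard error 0.21, edgeR adjusted p = 0.000436), with 0.77 under ERCC size factors, and was higher in 1/8 by median ratio (log2 fold change 2.29, standard error 0.36, edgeR adjusted p = 0.00012) with -2.70 by ERCC. Cox7c, another small subunit, had 12.3 and 18.3 CPM at 10 cycles, 13.3 and 15.1 at 14 cycles, 3.98 and 2.34 at 18 cycles, 9.94 and 9.73 in 1/2, 8.19 and 13.7 in 1/4, and 13.5 and 18.8 for 1/8. Both whole oocytes at 18 cycles were lowest, at few counts. Its fall by shares (log2 fold change -1.97, standard error 0.45, edgeR adjusted p = 0.00646), with 0.27 under ERCC size factors, was lost without replicate 1 of the whole oocytes at 10 cycles (0.0123), replicate 2 of the whole oocytes at 10 cycles (0.0486), replicate 1 of the whole oocytes at 14 cycles (0.0134), replicate 2 of the whole oocytes at 14 cycles (0.0147), replicate 1 of the whole oocytes at 18 cycles (0.0222) or replicate 2 of the whole oocytes at 18 cycles (0.0254), and with only the 2 groups compared in the fit (0.0171), adjusted p of edgeR in brackets. Ndufa4 had 139.6 and 159.6 CPM at 10 cycles, 126 and 171 at 14 cycles, 98.4 and 22.9 at 18 cycles, 116 and 99.5 in 1/2, 89.6 and 119.6 in 1/4, and 163 and 301 for 1/8. Replicate 1 at 18 cycles was 98.4 CPM and replicate 2 was 22.9 CPM, and the change was not called (log2 fold change -1.03, standard error 0.43, edgeR adjusted p = 0.0869). With no filter, or without replicate 1 at 18 cycles (log2 fold change -2.35, adjusted p = 0.00114), edgeR called it lower. It was higher in 1/8 by median ratio (log2 fold change 1.73, standard error 0.42, edgeR adjusted p = 0.00435) with -3.42 by ERCC, and the call was lost without replicate 2 of the whole oocytes at 18 cycles (0.0578) or replicate 2 of 1/8 (0.0657), adjusted p of edgeR in brackets.

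In complex V the largest rise belonged to Atp5d, the delta subunit of the central stalk, which had 36.6 and 32.8 CPM at 10 cycles, 48.3 and 45.7 at 14 cycles, 219 and 160.0 at 18 cycles, 146 and 106 in 1/2, 144 and 109 in 1/4, and 43.8 and 22.3 for 1/8. Whole oocytes at 18 cycles, 1/2 and 1/4 were above the 4 at 10 and 14 cycles, while 1/8 overlapped them. From 10 to 18 cycles it rose (log2 fold change 2.71, standard error 0.21, edgeR adjusted p = 4.92e-05), and it fell in 1/8 against whole oocytes at 18 cycles (log2 fold change -2.65, standard error 0.35, edgeR adjusted p = 2.21e-05). Its stalk partner Atp5e (ENSMUSG00000016252, chr2:174461072-174464105) had 172 and 191 CPM at 10 cycles, 191 and 196 at 14 cycles, 782 and 849 at 18 cycles, 907 and 755 in 1/2, 534 and 478 in 1/4, and 249.6 and 512 for 1/8. All 8 libraries at 18 cycles were above the others, and 1/8 had replicates far apart. It rose between 10 and 18 cycles (log2 fold change 2.44, standard error 0.21, edgeR adjusted p = 6.18e-05). Its fall in 1/8 against whole oocytes at 18 cycles (log2 fold change -1.31, standard error 0.32, edgeR adjusted p = 0.00378) was lost without replicate 2 of the whole oocytes at 18 cycles (0.0223) or replicate 1 of 1/8 (0.069), adjusted p of edgeR in brackets. Atp5h, a subunit of the outer stalk, had 66.7 and 79.7 CPM at 10 cycles, 64 and 71.3 at 14 cycles, 20.9 and 11.7 at 18 cycles, 45.5 and 32 in 1/2, 40.5 and 50.3 in 1/4, and 80.1 and 108 for 1/8. The 2 whole oocytes at 18 cycles were lowest without overlap and 1/8 highest. It fell by shares between 10 and 18 cycles (log2 fold change -1.88, standard error 0.28, edgeR adjusted p = 0.000551) with 0.40 under ERCC size factors, and in 1/8 it was higher by median ratio (log2 fold change 2.3, standard error 0.38, edgeR adjusted p = 0.000166) with -2.72 by ERCC.

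The alpha, beta and gamma subunits had smaller log2 fold changes between 18 and 10 cycles than Atp5d and Atp5e. Atp5a1 had 74 and 62.2 CPM at 10 cycles, 77.5 and 69 at 14 cycles, 132 and 117 at 18 cycles, 85 and 103 in 1/2, 73 and 78.4 in 1/4, and 68.6 and 64.6 for 1/8. At 18 cycles the 2 whole oocytes were above all other libraries. Its rise from 10 to 18 cycles was called (log2 fold change 1.13, standard error 0.20, edgeR adjusted p = 0.00135), a call lost without replicate 1 of the whole oocytes at 10 cycles (0.0106) or replicate 2 of the whole oocytes at 10 cycles (0.0187), adjusted p of edgeR in brackets. Atp5b had 294 and 255 CPM at 10 cycles, 287 and 291 at 14 cycles, 469 and 372 at 18 cycles, 331 and 351 in 1/2, 274 and 302 in 1/4, and 389 and 278 for 1/8. Replicate 2 at 18 cycles lay inside the range of the 1/8 libraries but above all oocytes at 10 and 14 cycles. It rose (log2 fold change 0.88, standard error 0.19, edgeR adjusted p = 0.00462), a call lost without replicate 1 of the whole oocytes at 10 cycles (0.0244), replicate 2 of the whole oocytes at 10 cycles (0.0432), replicate 1 of the whole oocytes at 14 cycles (0.0192) or replicate 2 of the whole oocytes at 14 cycles (0.0188), adjusted p of edgeR in brackets. It was lost too with at least 10 counts in every library (0.0108) and with only the 2 groups compared in the edgeR fit (0.019). Atp5c1 had 186 and 155 CPM at 10 cycles, 166 and 199 at 14 cycles, 275 and 274 at 18 cycles, 295 and 253 in 1/2, 180.0 and 249.5 in 1/4, and 253 and 344 for 1/8. At 18 cycles whole oocytes were above those at 10 and 14 cycles, and it rose (log2 fold change 0.96, standard error 0.20, edgeR adjusted p = 0.00369), a call lost without replicate 1 of the whole oocytes at 10 cycles (0.0196), replicate 2 of the whole oocytes at 10 cycles (0.0395), replicate 1 of the whole oocytes at 14 cycles (0.012) or replicate 2 of the whole oocytes at 14 cycles (0.0117), or with only the 2 groups compared in the fit (0.0114), adjusted p of edgeR in brackets. The ring genes Atp5g1, Atp5g2 and Atp5g3 were not called between 18 and 10 cycles, with log2 fold changes of -1.53, 0.12 and 0.91 and edgeR adjusted p of 0.0171, 0.923 and 0.0167. DESeq2 called Atp5g1 (adjusted p = 0.00627) and Atp5g3 (adjusted p = 0.00499), and edgeR called both with no filter and without replicate 2 at 18 cycles (log2 fold changes -1.98 and 1.13). The CPM of 6 members in each library are drawn together.

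**Figure D2:**
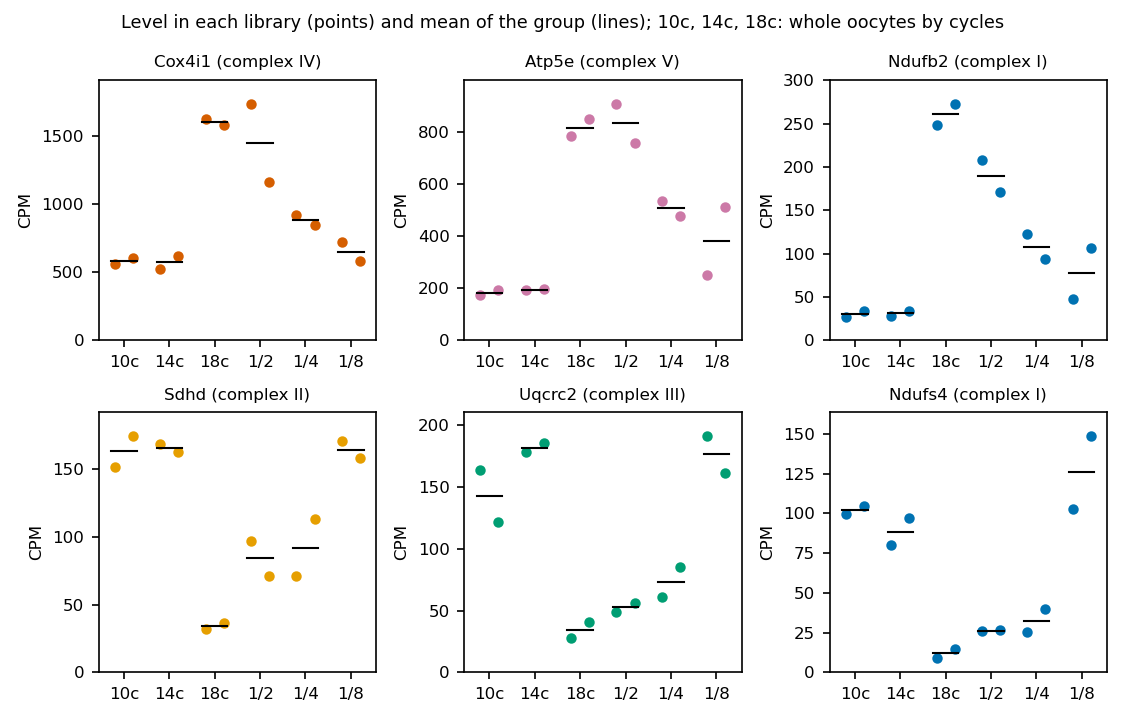
CPM of Cox4i1, Atp5e, Ndufb2, Sdhd, Uqcrc2 and Ndufs4 in each library. Points are single libraries and short horizontal lines mark the mean of each group.

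Replicates of the members differed most in 1/2, in 1/8 and at 18 cycles. The median absolute log2 ratio between replicates was 0.222 over members at 10 cycles, 0.18 at 14, 0.406 at 18, 0.547 in 1/2, 0.212 in 1/4 and 0.431 in 1/8. Over all genes it was 0.298, 0.197, 0.381, 0.379, 0.286 and 0.412. In 1/2 the signed median was 0.547 too, so most members had the higher share in replicate 1. Among the 73 members with enough counts in both whole oocytes at 18 cycles to enter this comparison, the widest ratio was that of Uqcr11, a small subunit of complex III, at 70.9 CPM in replicate 1 and 16.4 CPM in replicate 2.

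Reads of some members could belong to other genes. Pseudogene copies at 95% identity or more over at least 100 bases were found for 23 members, and exons of 31 members overlapped another gene, 27 of them on the opposite strand. The library kit keeps no strand, so reads from opposite-strand overlaps cannot be told apart. Of the counts on a member and its pseudogene copies together over the 12 libraries, the copies drew most for Atp5l (22.35%), Cox7a2l (15.17%), Ndufa12 (7.58%) and Atp5o (7.12% and 2.32% for its 2 entries). They drew 2.24% for Atp5g1, 1.86% for Ndufs3 and 1.17% for Atp5h, and under 1% for every other member. The counter of reads aligned to more than 1 place stood at 0 in all 12 libraries. Any reads of members left out because they fit more than 1 place, or set aside as ambiguous, are not measured by these shares. Of the members described above, the overlapped share of exon bases was 19.7% in Uqcrc2 (Pdzd9), 12.9% in Ndufb11 (Rbm10), 12.8% in Cox5a (Gm26631), 11.5% in Ndufa2 (Tmco6), 10.3% in Cox6a2 (Itgad), 9.9% in Cox4i1 (Emc8), 7.9% in Ndufb2 (with Gm42420 on the same strand) and 6.2% in Ndufs1 (Eef1b2, Ino80dos), and lower in the others. Atp5o was counted under 2 identifiers that overlap each other, ENSMUSG00000116933 and ENSMUSG00000022956. Neither a pseudogene copy nor an overlap was found for 41 tested members, which still take in Ndufc1, Cox5b and Uqcr10 with matches in other genes. Among these 41, edgeR called 15 higher and 4 lower between 18 and 10 cycles, with a median log2 fold change of 0.81. Over all tested genes 12.3% were higher and 10.8% lower, with a median of -0.29.

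Member fold changes were set beside base composition. Between 18 and 10 cycles, the Spearman correlation of log2 fold change with transcript GC was 0.35 over the 84 members and 0.39 over all genes. Members that were higher had a median GC of 52.0%, those lower 46.7% and those not called 52.5%. Ndufb2 and Ndufc1, the largest rises of complex I, had a GC of 43.7% and 44.1%. For 1/8 against the 18-cycle whole oocytes this correlation was -0.43 over members and -0.41 over all genes. Transcript length gave 0.06 over members between 18 and 10 cycles. Whether GC content causes the changes was not tested.

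Genes that build or feed the complexes were tested between 18 and 10 cycles with the same fit, which called 12.3% of all tested genes higher and 10.8% lower. At an unadjusted p under 0.05 this fit gave 7989 of all 17532 genes, and DESeq2 called 2729 higher and 2422 lower. A list whose share lies near these says nothing particular to the list. Of 15 complex I assembly factors edgeR called 3 higher and 0 lower (9 at an unadjusted p under 0.05, DESeq2 5 higher and 0 lower). The largest rise among them was 1.85 in log2 for Ndufaf8, lost without replicate 1 of the whole oocytes at 10 cycles (0.0149), edgeR adjusted p in brackets. Of 19 complex IV assembly factors edgeR called 5 higher and 0 lower (15 at an unadjusted p under 0.05, DESeq2 6 higher and 0 lower), among them Cox14, needed to make the mt-Co1 protein, at a log2 fold change of 1.73. Complex II gave 1 assembly factor in each direction, with Sdhaf1, which helps place clusters in Sdhb, at a log2 fold change of 2.68. The factor lower by shares was Sdhaf2, which attaches FAD to Sdha, at -1.06 in log2 and 1.15 under ERCC size factors, and its edgeR call was lost without replicate 1 of the whole oocytes at 10 cycles (0.0126), replicate 2 of the whole oocytes at 10 cycles (0.059), replicate 1 of the whole oocytes at 14 cycles (0.0205), replicate 2 of the whole oocytes at 14 cycles (0.0214), replicate 1 of the whole oocytes at 18 cycles (0.0441) or replicate 2 of the whole oocytes at 18 cycles (0.0161), and with only the 2 groups compared in the fit (0.0205), adjusted p in brackets. Complex III gave 1 in each direction too, with Uqcc2 at 2.59 and Uqcc1 at -1.48 in log2 by shares, the latter 0.73 under ERCC size factors. Of the 4 tested genes for assembly and inhibition of complex V 2 were higher, the largest change being 1.98 in log2 for Atpif1, which blocks the enzyme from splitting ATP. The other was Tmem70 at 1.19 in log2, whose edgeR call was lost without replicate 1 of the whole oocytes at 10 cycles (0.0111) or replicate 2 of the whole oocytes at 10 cycles (0.0102), adjusted p in brackets. Of 10 genes for ubiquinone and cytochrome c 3 were higher and 1 lower, with Coq4, of ubiquinone synthesis, at 2.15 and Pdss2, which makes its side chain, at -1.71 in log2 by shares and 0.53 under ERCC size factors. Of 13 citric acid cycle genes 2 were higher and 3 lower. Mdh2, malate dehydrogenase, was 1 of the higher at 0.93 in log2, but its edgeR call was lost without replicate 1 of the whole oocytes at 10 cycles (0.0602), replicate 2 of the whole oocytes at 10 cycles (0.0301), replicate 1 of the whole oocytes at 14 cycles (0.0185), replicate 2 of the whole oocytes at 14 cycles (0.018) or replicate 1 of the whole oocytes at 18 cycles (0.0286), and with TMM (0.0107), with at least 10 counts in every library (0.013) and with only the 2 groups compared (0.0165), adjusted p in brackets. The lowest was Dld, which is shared by several dehydrogenases, at -1.72 in log2 by shares and 0.48 under ERCC size factors. Of 9 regulators of mitochondrial genes edgeR called 0, with 2 at an unadjusted p under 0.05 and 0 with DESeq2. The 14 oocyte markers gave 0 higher and 12 lower with edgeR (13 at an unadjusted p under 0.05, DESeq2 0 higher and 13 lower), but 3 higher and 0 lower under ERCC size factors. Gdf9, a growth factor secreted by the oocyte, had a log2 fold change of -1.44 by shares and 0.79 under ERCC size factors. By shares the median log2 fold change was thus 0.46 over members and -1.48 over the oocyte markers. Under ERCC size factors 59 of 84 members and 3 of 14 markers were higher, beside 8348 of all 17532 tested genes.

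The partners encoded in mitochondrial DNA had lower shares at 18 cycles. The 13 genes summed to 1698 and 859 CPM at 10 cycles, 1097 and 1381 at 14 cycles, 162 and 278 at 18 cycles, 169 and 206 in 1/2, 277 and 382 in 1/4, and 596 and 774 for 1/8. All 8 libraries at 18 cycles were below the 4 others. Of the 7 tested, edgeR called 0 higher and 5 lower by shares between 18 and 10 cycles, beside 10.8% lower of all tested genes. All 7 had an unadjusted p under 0.05, beside 7989 of all 17532 genes. DESeq2 gave 0 higher and 5 lower, beside 2729 and 2422 of all genes. Under ERCC size factors 0 were called in either direction, beside 8348 genes higher and 0 lower. The call of mt-Co1, the catalytic core of complex IV, at -2.34 in log2 by shares and -0.06 under ERCC size factors, was lost without replicate 1 of the whole oocytes at 10 cycles (0.0245), replicate 1 of the whole oocytes at 18 cycles (0.0399) or replicate 2 of the whole oocytes at 18 cycles (0.016), adjusted p of edgeR in brackets. Among the same genes mt-Nd2, a subunit of complex I, had a log2 fold change of -2.51 by shares and -0.34 under ERCC size factors, and its edgeR call was lost without replicate 1 of the whole oocytes at 10 cycles (0.0136) or replicate 2 of the whole oocytes at 10 cycles (0.0105), adjusted p in brackets. Without replicate 1 at 10 cycles both calls were thus lost. Of the 13 genes, mt-Nd3, mt-Nd4l, mt-Atp6 and mt-Atp8 had 0 counts in every library. The sums above hold only reads assigned to a single gene, and reads fitting other places or genes may be missing. Why these 4 genes had no counts was not tested.

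Promoters of the members were searched for sites of regulators known to act on respiratory genes. Windows from 250 bases before to 50 after the RefSeq transcript start in GRCm38.p6 were read on both strands for 69 symbols and for 27025 genes. The YY1 letters AAGATGGCG were found in 7 members, 10.145%, against 1.639% of all genes. The ETS letters CCGGAAGT were found in 5 members, 7.246%, against 4.307%. The palindromic site of NRF1, which drives respiratory subunits, was found in 5 members, 7.246%, against 1.073% of all genes. None of the 3 runs of letters holds another. At least 1 of the 3 was found in 17 members, 24.638%, against 6.757%. Members with the YY1 letters were Ndufc1, Ndufa9, Ndufs7, Ndufs6, Ndufs4, Atp5j and Atp5j2, and so took in both the rising Ndufc1 and, by shares but not called under ERCC size factors, the falling Ndufs4. The NRF1 site is shown in capitals in 4 windows of 30 bases, read 5' to 3' on the strand of the gene, with coordinates on GRCm38.p6.

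Atp5k (chr5:108434430-108434459, minus strand, 50 bases before the start): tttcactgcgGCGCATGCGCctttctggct

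Cox6a1 (chr5:115349101-115349130, minus strand, 162 bases before the start): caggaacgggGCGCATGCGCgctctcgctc

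Atp5g2 (chr15:102671070-102671099, minus strand, 42 bases before the start): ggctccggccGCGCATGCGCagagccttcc

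Ndufa11 (chr17:56717692-56717721, plus strand, 60 bases before the start): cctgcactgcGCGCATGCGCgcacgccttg

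The sites were found by letters alone, and binding was not measured. Of these 4 members, Cox6a1 rose between 10 and 18 cycles, and Atp5k, Atp5g2 and Ndufa11 were not called. The other member with the NRF1 site, not shown, was Uqcrc1, with the site 30 bases after the start, and it was not called either.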

How the data were processed

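Poly(A) RNA of 6 whole mouse oocytes and of 1/2, 1/4 and 1/8 lysates was sequenced in 12 libraries, 2 per group. For each library the authors deposited unnormalized counts of genes and ERCC molecules; the submitters' processing notes name cutadapt 2.5, FastQC 0.11.8, STAR 2.7.2a, SAMtools 1.9, HTSeq 0.9.1, R 3.5.1 and DESeq2 1.24.0. Reads assigned to no feature were 6.90% to 10.8% of each library and ambiguous reads 2.64% to 4.54%, and both stayed out of totals and tests. The strand setting of the counting was not settled, so opposite-strand overlaps are uncertain.

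CPM and TPM were computed from the deposited counts, with TPM on the union of exons, and 3 counts were the floor. Replicates differed by a chi-square per degree of freedom of 10.82 to 18.38, against 1 for counting error alone. Tests used edgeR 4.0.16 quasi-likelihood fits in R 4.3.3 on all genes with at least 5 counts in 2 libraries, with groups as terms, median ratio size factors or ERCC size factors, and called genes at adjusted p under 0.01. DESeq2 1.42.0 was an alternative, as were other filters, TMM, ERCC size factors, a replicate block and leaving out each library. The scripts were tested on simulated data.

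Genes were named by a rule. Up to 2 largest rises and falls per complex between 18 and 10 cycles and in 1/8 against whole oocytes at 18 cycles were taken, with a mean of at least 50 normalized counts and no overlap of libraries. The 2 highest members by TPM per complex, members with a set role, and the most abundant gene and largest rise and fall of each other list were added. Of genes named by this rule, 1 member and part of the other lists are not reported by name here. Other lists were assembly factors of each complex, ubiquinone and cytochrome c genes, citric acid cycle genes, mitochondrially encoded subunits, regulators, and markers of oocytes, granulosa and cumulus cells and blood. Members and lists were chosen with earlier results of these data known.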

Additional observations from a re-analysis of the deposited data

How the results depend on the processing

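The 0 calls between 14 and 10 cycles held under every alternative, and leaving out 1 library gave 0 to 0 members higher and lower. ERCC size factors moved the counts most: 59 members were higher and 0 lower between 18 and 10 cycles, and 62 higher and 0 lower between 18 and 14 cycles, since these factors raise every estimate. Over all 17532 tested genes they gave 8348 higher and 0 lower, and 8398 higher and 2 lower. The log2 fold changes between 18 and 10 cycles then reversed for Sdhd (0.19), Sdhc (0.32), Uqcrc2 (0.40), Uqcrfs1 (1.59), Uqcrh (0.91), Ndufs1 (0.55), Ndufs8 (2.01), Ndufb3 (0.023), Ndufb11 (1.64), Cox7a2l (1.97), Cox7b (0.77), Cox7c (0.27) and Atp5h (0.40). Outside the members they reversed for Cs (1.91), Uqcc1 (0.73), Gdf9 (0.79), Kitl (0.27), Dld (0.48), Sdhaf2 (1.15), Ndufaf4 (1.66), Pdss2 (0.53), Cox10 (1.91) and Nrf1 (2.01). Of the values of the 69 named genes between 18 and 10 cycles 766 were labelled the same, 33 stronger, 63 weaker and 23 reversed. Stronger stands for a call gained and weaker for a call lost, whatever the size of the fold change. Reversed stands for a changed sign where the main or the alternative fit had a call. By the same labels, which follow the calls, the 68 named genes in 1/8 against whole oocytes at 18 cycles, median ratio, gave 797 the same, 13 stronger, 66 weaker and 0 reversed.

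For 1/2 against whole oocytes at 18 cycles by median ratio, DESeq2 gave 6 members higher, and no filter gave 7 higher and 1 lower. Over all genes DESeq2 gave 103 higher and 49 lower of 14788, and no filter 98 higher and 120 lower of 24294. In 1/4, DESeq2 gave 3 higher and 6 lower, and no filter 3 higher and 2 lower. Over all genes these were 70 higher and 171 lower with DESeq2, and 46 higher and 159 lower with no filter. Against 10 and 14 cycles, DESeq2 gave 5 lower in 1/4 and 8 higher in 1/8, and no filter 9 higher in 1/8. Over all genes DESeq2 gave 1440 lower in 1/4 and 119 higher in 1/8, of 18041, and no filter 117 higher in 1/8, of 30194. ERCC size factors against 10 and 14 cycles, chosen after the data were seen, gave 1 higher and 5 lower in 1/4 and 80 lower in 1/8. Over all 18041 genes they gave 284 higher and 1965 lower in 1/4, and 14043 lower in 1/8. The cause of these differences was not tested. With only the 2 groups compared in the fit, 25 members were higher and 10 lower between 18 and 10 cycles, beside 1824 higher and 1342 lower of all 15617 genes.

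The replicate block called 2 members up and 1 down for 1/2, then 1 up and 1 down for 1/4, against whole oocytes at 18 cycles by median ratio, and kept all other counts within 1.5 times. Over all 14788 genes it called 37 up and 36 down for 1/2, and 21 up and 105 down for 1/4. Whether fractions with the same replicate number share an oocyte is not stated, and deviations of libraries with the same number correlated at -0.144 to 0.136.

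Leaving out 1 library, with the lone library assumed to vary like the other groups, gave these ranges of members. Shares over all genes in these refits are not given here or above, so nothing particular to the members is read from the counts. Between 18 and 10 cycles 17 to 33 were higher and 7 to 13 lower, and between 18 and 14 cycles 18 to 33 and 6 to 12. By median ratio, 1/2 gave 0 to 1 higher and 0 to 1 lower, 1/4 gave 0 to 0 for both, and 1/8 gave 8 to 11 higher and 10 to 19 lower. By ERCC, 7 to 52 were lower in 1/2, 46 to 75 in 1/4 and 76 to 80 in 1/8, with 0 to 0 higher. Against 10 and 14 cycles, 1/2 gave 26 to 46 higher and 2 to 4 lower, 1/4 gave 8 to 24 and 0 to 4, and 1/8 gave 0 to 4 and 0 to 0. Summed CPM then ran from 6374.8 to 6856.5 at 10 cycles, 6160.9 to 6973.8 at 14, 10671.7 to 12659.6 at 18, 10851.3 to 15131.7 in 1/2, 8836.1 to 9411.0 in 1/4 and 8307.2 to 9937.4 in 1/8.

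With counts divided by median ratio size factors over the 12 libraries, summed CPM became 6113.1 at 10 cycles, 5910.0 at 14 and 13082.4 at 18. The median TPM of the members was 139.10 with the length of the longest coding transcript and 136.57 with that of the principal transcript, a choice made after the data were seen. With 2 libraries a group and 1702062 to 13806199 counts, small changes of rare members could not be seen.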
